A study of Homo sapiens with 9 samples.

Results

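The plasminogen activator system was followed in LN229 cells through 5 genes, out of 23727 in the count table: the activators PLAT and PLAU, the receptor PLAUR, and the serpins SERPINE2 and SERPINB2. They were taken by name, through their Ensembl identifiers; no measured value enters that rule, but it was written with earlier results of these data known. LN229 is a long-established line from a human glioblastoma, and RNA was sequenced from 3 groups of 3 libraries. The groups were untreated cells collected at time 0 and cells given 500 µM sodium formate for 8 h or for 24 h. All groups shared the same medium, which held glucose at 17 mM, glutamine at 2 mM and 10% serum. Every untreated library was collected at 0 h, so the effect of formate and the effect of time in culture cannot be told apart. The labels do not say whether the libraries of a group came from separate cultures, so the p-values measure only the spread between libraries, which may be technical.

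The plasminogen activators are serine proteases that cut the proenzyme plasminogen into plasmin, a broad protease that degrades fibrin and parts of the extracellular matrix. Tissue-type activator (PLAT) is secreted and best known for fibrin clearance and for its roles in the brain, while urokinase (PLAU) is held at the cell surface by its receptor (PLAUR). Serpins are suicide inhibitors of proteases: SERPINE2, also called protease nexin-1, inhibits thrombin and both activators, and SERPINB2, also called PAI-2, inhibits both activators and is largely kept inside the cell. Urokinase and its receptor are widely studied in the invasion of glioblastoma.

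The regulatory sequence in front of these genes is shown for 3 of them: PLAUR and SERPINB2 for an AP-1 motif, since AP-1 subunits are described below, and SERPINE2 for a repeated CCAAT motif. RefSeq promoter windows on GRCh38.p14, of 250 bases before to 50 bases after a start site, were read for 4 members, 6 windows in all. PLAT was left out of this reading, so nothing is said of motifs in its promoter. Both strands were searched for TGANTCA, the core of the AP-1 site, and for CCAAT, the core of the NF-Y site. No window shown held both motifs, so no letters were counted under both. The 250 bases before the start are printed from 5′ to 3′ on the gene's strand, and capitals mark the matches. PLAUR lies on the minus strand at chr19:43670170-43670419, SERPINB2 on the plus strand at chr18:63887455-63887704, and the inner start of SERPINE2 on the minus strand at chr2:224031479-224031728.
PLAUR: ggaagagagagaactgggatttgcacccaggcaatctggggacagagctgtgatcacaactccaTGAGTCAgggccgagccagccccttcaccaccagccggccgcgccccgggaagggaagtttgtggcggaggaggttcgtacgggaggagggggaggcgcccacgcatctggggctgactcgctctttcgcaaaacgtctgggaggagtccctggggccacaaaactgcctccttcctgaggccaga
SERPINB2: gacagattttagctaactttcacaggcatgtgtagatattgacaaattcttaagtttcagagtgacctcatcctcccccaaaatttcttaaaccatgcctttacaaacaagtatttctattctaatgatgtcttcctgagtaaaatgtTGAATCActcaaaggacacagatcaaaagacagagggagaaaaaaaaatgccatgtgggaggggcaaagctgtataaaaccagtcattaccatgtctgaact
SERPINE2: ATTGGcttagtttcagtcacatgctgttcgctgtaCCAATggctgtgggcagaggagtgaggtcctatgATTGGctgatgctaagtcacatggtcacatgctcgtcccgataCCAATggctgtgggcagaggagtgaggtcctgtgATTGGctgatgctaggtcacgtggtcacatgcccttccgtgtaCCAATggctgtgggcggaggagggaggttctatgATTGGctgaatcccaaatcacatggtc
The PLAUR window held a single AP-1 match, TGAGTCA at position -186 from the start, and the SERPINB2 window a single match, TGAATCA at position -102. Of all 35116 promoter windows of this length, 7.71% held a TGANTCA match. A PLAU window, not shown, held a single CCAAT match at position -182. Neither PLAU window nor either SERPINE2 window held TGANTCA, which says only that these letters are not in those windows. The inner SERPINE2 window held 7 CCAAT matches, from position -250 to position -27, where 34.6% of windows held any and 8 windows (0.023%) held 7 or more. The matches sit in a tandem repeat: shifted by 77 bases against itself, the window was 64.1% identical over 223 bases. A match is a string of letters and was not tested as a binding site.

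The libraries held between 22222298 and 25848242 counts. The glioma markers VIM, NES, CD44, SOX2 and OLIG2 were present in all 9 libraries, while GFAP stayed under 1 CPM (a read count relative to library size, here with TMM scaling). CDKN2A, known to be deleted in this line, lay at or near 0 (at most 0.0471 CPM). The summed haematopoietic markers (PTPRC, CD68, CD14) were at most 0.619 CPM in any library, and EPCAM and CDH1 at most 0.085 CPM. Of the endothelial markers, PECAM1 was at most 0.133 CPM; VWF reached 1.57 CPM, with means of 0.424 at 0 h and 1.28 at 24 h. The epithelial sum was nearly all KRT18, and it ran from 120 to 184 CPM at 0 h and from 89.4 to 106 CPM at 24 h. The glioma marker sum ran from 6058 to 8457 CPM at 0 h and from 4886 to 5821 CPM at 24 h. The part of these shifts in the results below was not tested. In bulk RNA, fewer cells of a type and less RNA per cell cannot be told apart.

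SERPINE2 and PLAT were abundant transcripts, PLAUR was intermediate, and PLAU and SERPINB2 were barely detected. To compare genes, CPM were divided by the kilobases of merged exons (RPKM). At 0 h SERPINE2 stood at 194 ± 8.67 RPKM (SD, n = 3), which is above 98.8% of the 12630 protein-coding genes tested. PLAT followed at 93.7 ± 13.2 RPKM, above 96.9% of them, and PLAUR at 12.7 ± 4.48 RPKM, above 70% of them. SERPINB2 at 0.115 ± 0.046 and PLAU at 0.105 ± 0.0475 RPKM did not differ beyond their spread. The replicate ranges of SERPINE2, PLAT and PLAUR did not overlap in RPKM in any group, so their order was the same at 0, 8 and 24 h. Urokinase transcripts were thus scarce in libraries where its receptor was measured from 816 to 1688 counts.

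**Figure D1:**
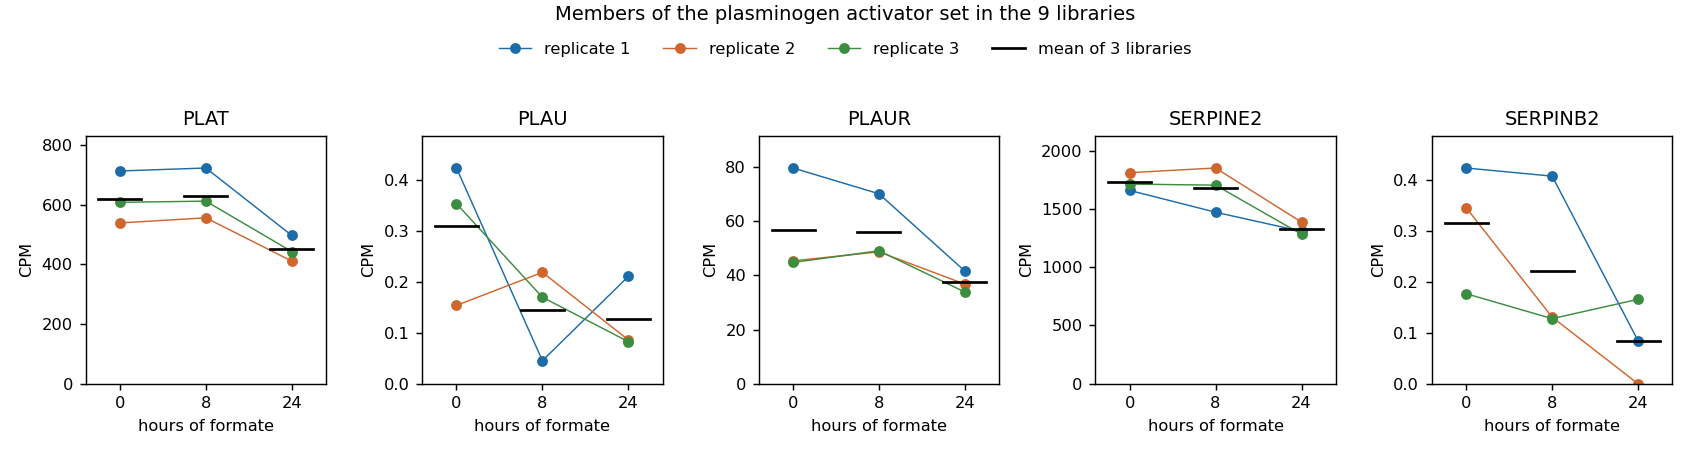
CPM of each member (vertical axis, starting at 0, with its own scale per panel) against hours of formate, with a coloured line for each replicate number and a black bar for the mean of 3 libraries. PLAT, PLAUR and SERPINE2 are lower in all 3 libraries at 24 h than in any at 0 h or 8 h, while PLAU and SERPINB2 stay under 0.5 CPM.

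After 8 h of formate none of the tested members passed, and their levels lay close to the untreated ones. PLAT was 713, 539 and 608 CPM in replicates 1 to 3 at 0 h and 723, 556 and 612 CPM at 8 h. Its log2 fold change was 0.02 (95% interval -0.28 to 0.33; edgeR quasi-likelihood test, Benjamini-Hochberg adjusted p = 0.9999). PLAUR differed by -0.01 (interval -0.49 to 0.46) and SERPINE2 by -0.04 (interval -0.31 to 0.22), on the same scale and with the same adjusted p. In edgeR 0 of the 3 tested members passed, and 0 had an unadjusted p under 0.05; DESeq2 also called 0. Of all 15273 genes tested, 0% passed in this comparison.

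After 24 h PLAT, PLAUR and SERPINE2 were each lower in all 3 libraries than in any untreated library. The decreases were modest, to 0.726, 0.662 and 0.767 times the untreated level. None passed when each group had its own mean and nothing else was fitted, while all 3 passed once the replicate number was added as a block. The numbers pair these groups by the rule used here, so both values are given.

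PLAT (ENSG00000104368), the secreted activator, lies on chromosome 8 (42175233 to 42207724, minus strand, GENCODE 29 on GRCh38). It was 497, 411 and 443 CPM in replicates 1 to 3 at 24 h, against the untreated values given above. The highest 24 h library lay below the lowest untreated library, and replicate 1 was the highest of its group at every time. The log2 fold change was -0.46 ± 0.14 (SE; edgeR, adjusted p = 0.0813), and with the block it was -0.46 ± 0.08 (edgeR, adjusted p = 0.00183). Within the same-numbered pairs the differences were -0.52, -0.394 and -0.455 in log2 CPM, close to each other although the pairs started from different levels.

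PLAUR (ENSG00000011422), the glycolipid-anchored urokinase receptor, lies on chromosome 19 (43646095 to 43670547, minus strand). It was 79.5, 45.3 and 44.7 CPM in replicates 1 to 3 at 0 h, 70, 48.6 and 49 CPM at 8 h, and 41.5, 36.7 and 33.8 CPM at 24 h. Replicate 1 stood well above the others at 0 h and at 8 h, and the 24 h libraries were closer together. The log2 fold change from 0 h to 24 h was -0.60 ± 0.22 (edgeR, adjusted p = 0.126), and with the block -0.55 ± 0.11 (edgeR, adjusted p = 0.0062). Its size rested in part on untreated replicate 1: without that library the value was -0.29 (edgeR, adjusted p = 0.329), and with the block -0.42 (edgeR, adjusted p = 0.00244). The same-numbered differences were -0.937, -0.302 and -0.401 in log2 CPM, so all 3 pairs were lower and the difference was largest in the pair numbered 1.

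SERPINE2 (ENSG00000135919), the inhibitor, lies on chromosome 2 (223975112 to 224039319, minus strand). It was 1658, 1810 and 1712 CPM at 0 h, 1471, 1850 and 1703 CPM at 8 h, and 1307, 1386 and 1282 CPM at 24 h. The 24 h values did not overlap with either earlier group, although replicate 1 at 8 h was nearest to them. The log2 fold change from 0 h to 24 h was -0.38 ± 0.12 (edgeR, adjusted p = 0.0854), and with the block -0.38 ± 0.08 (edgeR, adjusted p = 0.00835). Unlike PLAT and PLAUR, SERPINE2 had its highest value in replicate 2 at every time.

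Counted together, 0 of the 3 tested members passed in edgeR without the block, where 1.77% of all genes passed as lower. All 3 had an unadjusted p under 0.05, as had 4027 of all 15273 genes in either direction. With the block, 3 of 3 passed as lower, where 11.6% of all genes did, and they passed in each of the 9 fits that left out a library. DESeq2 without the block called PLAT (adjusted p = 0.0188) and SERPINE2 (adjusted p = 0.00615) and not PLAUR (adjusted p = 0.067). It also called 13 of the 34 tested list genes, where edgeR without the block called 3. The share of all genes that DESeq2 called is not given here for any comparison. Non-overlapping lower replicates, found for all 3, were found for 14.4% of all genes. The median log2 fold change of the 3 members was -0.46, against 0.01 over all genes tested. Only the members that passed the filter on low counts enter these counts.

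**Figure D2:**
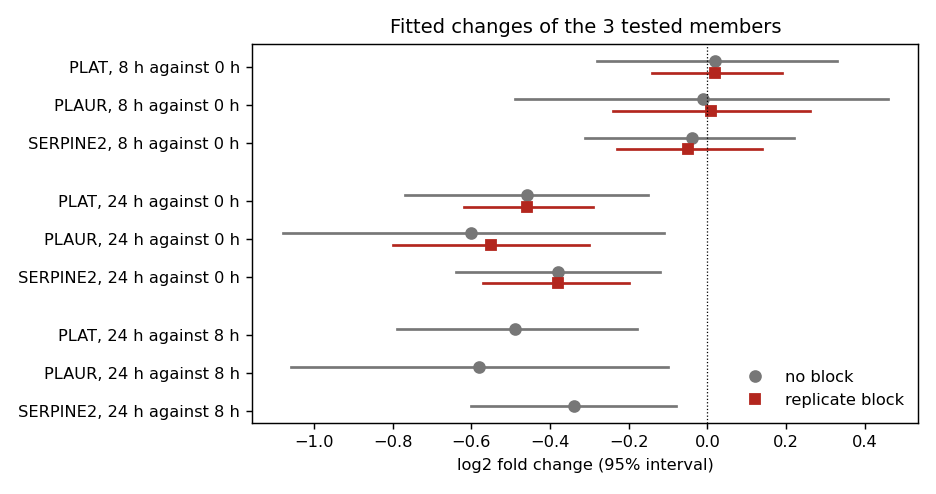
Log2 fold changes of PLAT, PLAUR and SERPINE2 (horizontal axis) in each comparison, without the replicate block (grey) and, for the comparisons with 0 h, with it (red); bars are 95% intervals. The intervals at 8 h all span 0, the 24 h values lie between -0.60 and -0.34, and the intervals are narrower with the block.

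From 8 h to 24 h the members differed by -0.49 ± 0.14 for PLAT (edgeR, adjusted p = 0.0718), -0.58 ± 0.22 for PLAUR (edgeR, adjusted p = 0.145) and -0.34 ± 0.12 for SERPINE2 (edgeR, adjusted p = 0.121). None of the 3 passed without the block, where 1.72% of all genes passed as lower. All 3 had an unadjusted p under 0.05, as had 3486 of all 15273 genes in either direction. Without untreated replicate 1, which belongs to neither group, all 3 passed, with edgeR adjusted p-values of 0.0173, 0.0155 and 0.0456. In that fit 15 of the 34 tested list genes also passed, against 4 with all libraries. The share of all genes that passed in it is not given here. DESeq2 called 2 of the 3 members and 11 of the 34 tested list genes. The replicates did not overlap for any of the 3, as was so for 16.2% of all genes. The 24 h libraries are the same in both comparisons, so this is not separate evidence of the decrease.

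The mean proportion of SERPINE2 to PLAT transcripts was similar at all times. Per length, SERPINE2 transcripts exceeded PLAT transcripts by 2.11 ± 0.384 times at 0 h, 2.02 ± 0.483 times at 8 h and 2.21 ± 0.282 times at 24 h (mean ± SD of the ratios of 3 libraries). The ratio of PLAT to PLAUR was 7.74 ± 1.58, 7.69 ± 0.729 and 8.14 ± 0.657 at the same times. The mean ratios differed between times by less than their spread between libraries. In replicates 1 to 3, SERPINE2 to PLAT was 1.73, 2.5 and 2.1 at 0 h and 1.96, 2.51 and 2.15 at 24 h. PLAT to PLAUR was 6.04, 8.02 and 9.16 at 0 h and 8.07, 7.53 and 8.84 at 24 h. The ratios were not tested.

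PLAU (ENSG00000122861), the urokinase gene, lies on chromosome 10 (73909177 to 73917497, plus strand). It had 9, 4 and 8 counts in replicates 1 to 3 at 0 h, 1, 5 and 4 counts at 8 h, and 5, 2 and 2 counts at 24 h. The summed counts were 21 (exact Poisson 95% interval 13 to 32.1), 10 (4.8 to 18.4) and 9 (4.12 to 17.1), intervals that cover counting error only and overlap. PLAU did not pass the filter on low counts. In an edgeR fit without that filter its 24 h value was -1.23 ± 0.63 (adjusted p = 0.291), and no difference was detectable at this depth. C10orf55 overlaps 31.1% of its exon bases on the opposite strand and the strand setting of the counting is not given in the sources used here, so some of these counts may belong to that gene.

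SERPINB2 (ENSG00000197632) lies on chromosome 18 (63871692 to 63903890, plus strand). It had 9, 9 and 4 counts at 0 h, 9, 3 and 3 counts at 8 h, and 2, 0 and 4 counts at 24 h. The library with 0 counts allows up to 0.129 CPM, the value of 3 counts there. The summed counts were 22 (exact Poisson 95% interval 13.8 to 33.3), 15 (8.4 to 24.7) and 6 (2.2 to 13.1). In an edgeR fit without the filter on low counts the 24 h value was -1.84 ± 0.75 (adjusted p = 0.183), which did not pass. SERPINB10 shares 19.9% of its exon bases on the same strand, so reads there could be split between them.

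Among other inhibitors of plasminogen activators or plasmin, SERPINA5, SERPINI1 and A2M are described singly, and no direction of the group is drawn from them. SERPINA5, the protein C inhibitor, was 38.7 ± 10.6 CPM at 0 h and 69.4 ± 14.7 CPM at 24 h. It passed as higher with the block (0.87 ± 0.12; edgeR, adjusted p = 0.000709) and not without it (0.84 ± 0.25; edgeR, adjusted p = 0.0774). SERPINI1, or neuroserpin, which inhibits PLAT in neurons, differed by 0.43 and the broad inhibitor A2M by 0.42; neither passed in either fit.

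Of 6 listed genes, plasminogen, its surface receptors and CPB2, a carboxypeptidase that limits plasminogen binding, 4 receptor genes were tested. All 4 estimates lay below 0 at 24 h, with a median of -0.44. Of all 15273 genes, 7492 lay below 0, with a median of 0.01. In edgeR without the block 0 passed. An unadjusted p under 0.05 was found for 2, and for 4027 of all 15273 genes in either direction. DESeq2 called 1 as lower, and 2 passed as lower with the block, where 11.6% of all genes did. These were ANXA2 (-0.62 ± 0.09 with the block; edgeR, adjusted p = 0.0012) and ENO1 (-0.49 ± 0.10; edgeR, adjusted p = 0.0045), an annexin and a glycolytic enzyme that bind plasminogen at the cell surface. The annotation names 3 pseudogenes after ANXA2 and 4 after ENO1, so reads could be split among copies. S100A10, the partner of ANXA2, and the receptor PLGRKT did not pass in either fit.

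Among 6 enzymes that can activate pro-urokinase, 3 were tested. CTSL, a lysosomal cathepsin, passed as lower with the block (-0.43 ± 0.09, edgeR, adjusted p = 0.00564), where 11.6% of all genes did. Without the block CTSL did not pass (edgeR, adjusted p = 0.0731). The annotation names 6 pseudogenes after CTSL, so its reads could also be split. CTSB differed by -0.01 and F12 by 0.28, and neither passed. Of the partners and clearance receptors of urokinase and its receptor described here, 10 were tested and 8 lay above 0, with a median of 0.44. Of all 15273 genes, 7781 lay above 0, with a median of 0.01. The highest of the 10 estimates, 1.05 for LRP2, rests on 18, 6 and 5 counts at 0 h and 23, 24 and 15 at 24 h. LRP2 passed the filter on low counts mainly through its 24 h libraries, so its share in these counts and this median is no support for a direction. None of the 10 passed in edgeR without the block, and DESeq2 called 4 as higher. An unadjusted p under 0.05 was found for 5, and for 4027 of all 15273 genes in either direction. With the block, 4 passed as higher, where 12.6% of all genes did: LRP1 and VLDLR, endocytic receptors; MRC2, a collagen receptor that associates with PLAUR; and the integrin subunit ITGB3. LRP1, which takes up complexes of activator and inhibitor, was 55.3 ± 14 CPM at 0 h and 84.5 ± 10.2 CPM at 24 h (0.62 ± 0.16 with the block; edgeR, adjusted p = 0.0159). AC068234.1 shares 51.6% of the exon bases of ITGB3 on the same strand, so its counts are uncertain.

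**Figure D3:**
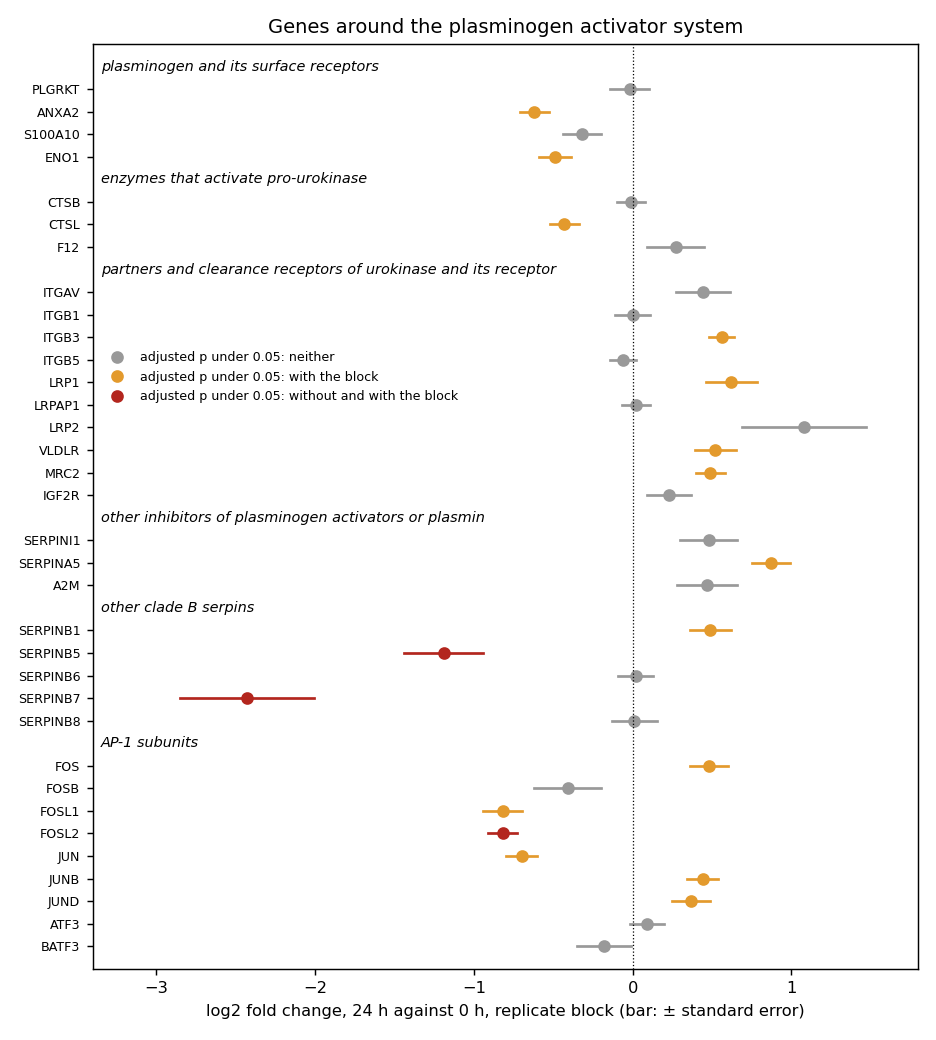
Log2 fold change from 0 h to 24 h in the fit with the replicate block (horizontal axis; bars are ± SE) for the tested genes described from 6 lists. Red marks genes past an adjusted p of 0.05 in both fits, orange those past it with the block alone; SERPINB5, SERPINB7 and FOSL2 are red and all lie below 0.

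SERPINB2 sits in a cluster of clade B serpins on chromosome 18, and some other genes there had more counts. SERPINB3, 209.7 kb from SERPINB2, had 0 counts in every library. SERPINB7, 66.3 kb from SERPINB2, was 1.51, 0.923 and 0.619 CPM in replicates 1 to 3 at 0 h and 0.254, 0.129 and 0.166 CPM at 24 h. It fell by 2.43 ± 0.45 on the log2 scale (edgeR, adjusted p = 0.0253), from 70 summed counts to 13. The 24 h counts of SERPINB7 were 6, 3 and 4, close to the floor of 3 counts. It passed the filter on low counts through the libraries at 0 h and 8 h, where it was higher. The size of its fold is therefore uncertain, and its call is not taken as support. SERPINB5, or maspin, 366.6 kb away, was 4.1, 3.19 and 3.8 CPM at 0 h and 2.2, 1.34 and 1.33 CPM at 24 h, and fell by 1.19 ± 0.26 (edgeR, adjusted p = 0.0347). Both were lower without overlap, as were 14.4% of all genes. Neither passed without the block when replicate 2 or replicate 3 of 24 h was left out (edgeR, adjusted p between 0.123 and 0.165) or when only the 2 groups compared were fitted (adjusted p = 0.0504 for SERPINB7 and 0.054 for SERPINB5). SERPINB5 also did not pass without untreated replicate 1 (0.0677), untreated replicate 3 (0.0578) or replicate 2 of 8 h (0.0518). With the block, both passed in all 9 fits that left out a library.

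SERPINB8, 66 kb from SERPINB2 on the other side, did not pass (0.04 ± 0.16; edgeR, adjusted p = 0.896). Of the 12 other clade B serpins listed, 5 were tested, and 2 passed as lower without the block, where 1.77% of all genes did. They were SERPINB5 and SERPINB7, the latter under the limit given above. SERPINB1, an inhibitor of neutrophil proteases on chromosome 6, passed as higher with the block (0.49 ± 0.13, edgeR, adjusted p = 0.0214), where 12.6% of all genes did. SERPINB6 differed by 0.02.

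**Figure D4:**
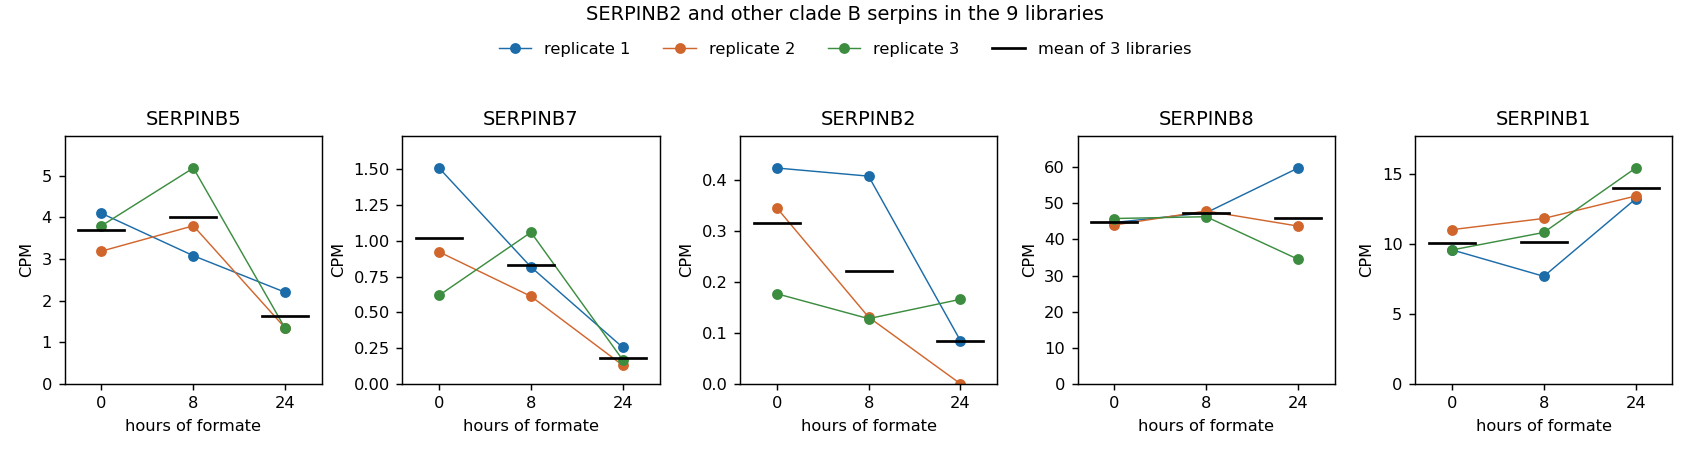
CPM (vertical axis, starting at 0, own scale per panel) of 5 clade B serpins against hours of formate, with a line per replicate number and a black bar for the mean. SERPINB5 and SERPINB7 are lower at 24 h in every library, SERPINB8 spreads from 34.5 to 59.8 CPM at 24 h, and SERPINB2 stays under 0.5 CPM.

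The AP-1 subunits, transcription factors that bind the TGANTCA motif shown above for PLAUR and SERPINB2, moved in both directions. All 9 listed subunits were tested. FOSL2 was 48.7, 42 and 41.4 CPM in replicates 1 to 3 at 0 h and 30.3, 23.7 and 21.4 CPM at 24 h. These ranges did not overlap, as was so for 14.4% of all genes in that direction. FOSL2 fell by 0.81 ± 0.17 on the log2 scale (edgeR, adjusted p = 0.0304), where 1.77% of all genes passed as lower. Without replicate 2 or 3 of 24 h its edgeR adjusted p was 0.134 and 0.148. With the block, FOSL1 (-0.82 ± 0.12, edgeR, adjusted p = 0.000956) and JUN (-0.70 ± 0.10, edgeR, adjusted p = 0.000672) also passed as lower, where 11.6% of all genes did. FOS, JUNB and JUND passed as higher with the block, by 0.48, 0.44 and 0.37, where 12.6% of all genes did. JUNB passed as higher without the block only from 8 h to 24 h (0.54 ± 0.11; edgeR, adjusted p = 0.0288), where 2.84% of all genes did; it did not pass there without any 1 of the 8 h libraries or without replicate 2 or 3 of 24 h. No value here bears on whether these factors act on the members.

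Over the 9 libraries, the genes most like each member were sought among 10905 genes of at least 5 CPM on average, by Pearson r of log2 CPM. For PLAT these were FAM171A1 (r = 0.994), AMIGO2 (0.993) and IL11 (0.992), and SFRP1 was most opposite (-0.992). For PLAUR they were TPRN (0.993), C19orf25 (0.991) and PTDSS1 (0.991), with NLGN2 most opposite (-0.993). For SERPINE2 they were CEP112 (0.965), SH3KBP1 (0.938) and TMEM19 (0.933), with DIAPH2 most opposite (-0.958). PLAT and PLAUR had r = 0.916 with each other, while SERPINE2 had r = 0.510 with PLAT and 0.393 with PLAUR. The value of 0.916 was not particular to this pair: PLAUR ranked 467 among the 10905 genes for PLAT, and PLAT ranked 1029 for PLAUR. The 9 points fall into 3 groups and share the replicate numbers, so these are descriptions with no test.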

How the data were processed

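The authors deposited a table of raw counts per Ensembl gene, 1 column for each of the 9 libraries. Per the labels' protocols, RNA with an integrity number above 9 went into a stranded mRNA kit. The submitters' processing notes name bcl2fastq 2.20.0.422, STAR 2.7.4a and the build GRCh38; the counting program, annotation release and strand setting are not given in the sources used here. Depth was 22222298 to 25848242 counts per library.

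Counts were filtered with filterByExpr (15273 genes kept), scaled with TMM and fitted in edgeR 4.0.16 (R 4.3.3) with 1 mean per group over all 9 libraries. Each comparison used the two-sided quasi-likelihood test with Benjamini-Hochberg adjustment over all 15273 genes and a threshold of 0.05. Alternatives were other size factors, DESeq2 1.42.0, no filter, only the groups compared, the replicate number as a block, and each library left out. Exon lengths and positions are those of GENCODE 29. CPM for likeness used a prior count of 2.

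The cell line's name is that of the growth protocol; a source label spells it differently. Replicate numbers come from the titles. Deviations from the group means of same-numbered libraries correlated across genes with r = 0.476, 0.432 and 0.414 between 0 h and 8 h, 0.367, 0.164 and 0.251 between 0 h and 24 h, and 0.423, 0.0367 and 0.404 between 8 h and 24 h. A block was therefore read beside the comparisons with 0 h, where every r was above 0.1, and from 8 h to 24 h only as an alternative. The biological coefficient of variation was 0.137 without and 0.0956 with the block.

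The members, the 6 gene lists (51 genes, 34 tested) and the naming rule were chosen with earlier results of these data known. All members were named, with the list genes past the threshold at 24 h without the block. List genes in counts of 5 or fewer were also named. SERPINA5, SERPINI1, A2M, CTSB, F12, S100A10, PLGRKT, SERPINB3, SERPINB6, SERPINB8, LRP1 and LRP2 were given values beside them. Some genes of the lists are not reported here and enter no list count, so these counts do not describe the whole lists.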

Additional observations from a re-analysis of the deposited data

Results flagged for a closer look

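In 4 of the 34 tested list genes the effects at 8 h and at 24 h differed, by the direct edgeR test of 24 h against 8 h without the block. Of all genes, 1.72% passed this test as lower and 2.84% as higher. The log2 differences were -1.31 for SERPINB5 (adjusted p = 0.025), -2.15 for SERPINB7 (adjusted p = 0.0319), -0.99 for FOSL2 (adjusted p = 0.0196) and 0.54 for JUNB (adjusted p = 0.0288). In each of the 4 genes the 3 libraries at 24 h did not overlap with those at 8 h. Of all genes, 16.2% were lower without overlap, the direction of SERPINB5, SERPINB7 and FOSL2. JUNB was higher, and the share of all genes that were higher without overlap is not given here. The 24 h counts of SERPINB7 were only 6, 3 and 4. It passed the filter on low counts through the libraries at 0 h and 8 h, so its call is not taken as support. None of the 4 passed when replicate 2 or 3 of the 24 h group, or replicate 1 of the 8 h group, was left out. The lowest adjusted p among those edgeR fits was 0.0755, for FOSL2 and for SERPINB5. Without replicate 3 of 8 h, SERPINB5 (edgeR, adjusted p = 0.0792) and SERPINB7 (edgeR, adjusted p = 0.0856) did not pass either. JUNB did not pass without any 1 of the 8 h libraries. The cause was not tested. None of the members passed this test.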

How the results depend on the processing

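From 0 h to 24 h, the number of members called was 0 in edgeR, 2 with DESeq2 and 3 with the replicate block. From 8 h to 24 h it was 0, 2 with DESeq2, 2 with only the groups compared and 3 with the block; leaving out each library gave 0 to 3. For any difference among the groups it was 0, 2 with DESeq2 and 3 with the block; leaving out each library gave 0 to 2. Of the 34 list genes, 3 were called from 0 h to 24 h, 13 with DESeq2, 1 with only the groups compared, 17 with the block and 0 to 7 with a library left out; of all genes, 4.25% were called without the block and 24.1% with it. From 8 h to 24 h 4 were called, 11 with DESeq2, 13 with only the groups compared, 18 with the block and 0 to 15 with a library left out (of all genes, 4.56% without and 20.5% with the block); with the block, 11 to 22 were called with a library left out. At 8 h against 0 h, where nothing was called, signs turned: PLAUR was 0.01 with the block, and -0.20 to 0.31 with a library left out (with the block -0.07 to 0.16); PLAT was -0.08 to 0.13, and SERPINE2 -0.12 to 0.05 (with the block -0.09 to 0.03). From 8 h to 24 h with the block, SERPINE2 passed in 5 of 9 fits with a library left out; PLAT and PLAUR passed in all 9. The cause of these changes was not tested. The shares of all genes called with DESeq2, with only the groups compared or with a library left out are not given here. Reading the alternatives for single list genes was chosen after seeing the data. Depth limits PLAU and SERPINB2, at 0 to 9 counts per library.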
